A study of Mus musculus with 24 samples.

Results

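The 9 noncoding RNA genes Malat1, Neat1, Meg3, Pvt1, Gas5, Snhg1, Kcnq1ot1, Rmrp and Rpph1 were followed across 24 mouse bladder tumors. They were chosen by name, as nuclear or tumor-related RNAs, out of 53465 genes in the count table. All 9 passed the filter on low counts in every comparison. Each was listed under 1 identifier except Rmrp, whose 2 identifiers cover nearly the same bases and were summed.

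The tumors were subcutaneous allografts of 8 BURP lines, with 3 tumors from each line. Every line began as a bladder tumor of a single C57BL/6NTac mouse that drank 0.1% BBN, a bladder carcinogen, from 8 weeks of age for up to 36 weeks, and it was passaged in syngeneic hosts of the donor's sex. Of the basal/squamous (Ba/Sq) lines, those with the numbers 12, 17 and 18 (BURP-12BaSq and so on) had male donors and those with the numbers 21, 24 and 25 female donors. The stroma-rich BURP-16SR and the neuroendocrine-like BURP-19NE had male donors. BURP-16SR and BURP-19NE are 1 line each, so that line and subtype cannot be told apart, and the 3 tumors of a line share a donor. No group was untreated with BBN, and no normal bladder was compared. Total RNA was depleted of ribosomal RNA before sequencing, a preparation that also keeps RNAs without a poly(A) tail.

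These RNAs do their work without being translated. Malat1 collects in nuclear speckles, the stores of splicing factors, and Neat1 is the scaffold of paraspeckles, another nuclear body. Gas5 and Snhg1 carry small nucleolar RNAs in their introns, and their spliced RNAs are degraded by nonsense-mediated decay. Meg3 and Kcnq1ot1 are transcribed from a single parental allele in imprinted domains, Pvt1 lies beside the oncogene Myc, and Rmrp and Rpph1 are the catalytic RNAs of RNase MRP and RNase P, made by RNA polymerase III.

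Total counts ran from 9295747 to 25370356 per tumor, with a median of 17693198.5, and a floor of 3 counts corresponded to 0.106 to 1.34 CPM, counting error only. CPM are counts relative to the library total, scaled by edgeR's TMM factors over all tumors. The 9 RNAs took from 0.535% to 4.45% of the counts of a tumor. Library C102-M30 of BURP-25BaSq stood apart, with 62.8% of its counts on ribosomal RNA genes, against 5.80% to 18.95% in the other 23. The label of C102-M1 of BURP-25BaSq was put in doubt by its H19, an imprinted fetal RNA. At 696 CPM it lay within the 253 to 1151 CPM of the BURP-21BaSq tumors, while the other BURP-25BaSq tumors had 5.97 and 16.1 CPM. Gas5 and Snhg1 of C102-M1, at 123 and 54.0 CPM, did not share this. They were below all BURP-21BaSq tumors, at 178 to 201 and 83.9 to 95.4 CPM. The other BURP-25BaSq tumors had 133 and 163 CPM of Gas5, and 76.2 and 60.4 CPM of Snhg1. Where a call of a member changed without both C102-M1 and C102-M30, both values are given. The labelled subtypes were checked against marker genes. Epithelial markers summed to 6253 to 13260 CPM in the Ba/Sq tumors, 500 to 1140 CPM in BURP-16SR and 175 to 261 CPM in BURP-19NE. Fibroblast markers ranged within BURP-16SR from 630 to 20830 CPM and in the Ba/Sq tumors from 282 to 10370 CPM, and 5 of 10 passed as higher in BURP-16SR. The study itself found that most BURP-16SR replicates correlated highly with the stroma-rich class and the rest with the neuroendocrine-like one. Neuroendocrine markers summed to 254 to 363 CPM in BURP-19NE and 4.28 to 110 CPM in the Ba/Sq tumors, and 2 of the 5 tested passed as higher.

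Per kilobase of exon, Rpph1 was the most abundant of the 9, with a median over the 24 tumors of 10158 CPM per kb, followed by Rmrp at 7544 and Malat1 at 2108 CPM per kb. Neat1 had a median of 228 CPM per kb, Gas5 of 32.4, Snhg1 of 15.7, Kcnq1ot1 of 3.47, Pvt1 of 2.30 and Meg3 of 0.830 CPM per kb. Malat1, Neat1 and Gas5 held the places 3, 4 and 5 in every tumor, while Rpph1 and Rmrp exchanged the places 1 and 2 between tumors.

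**Figure D1:**
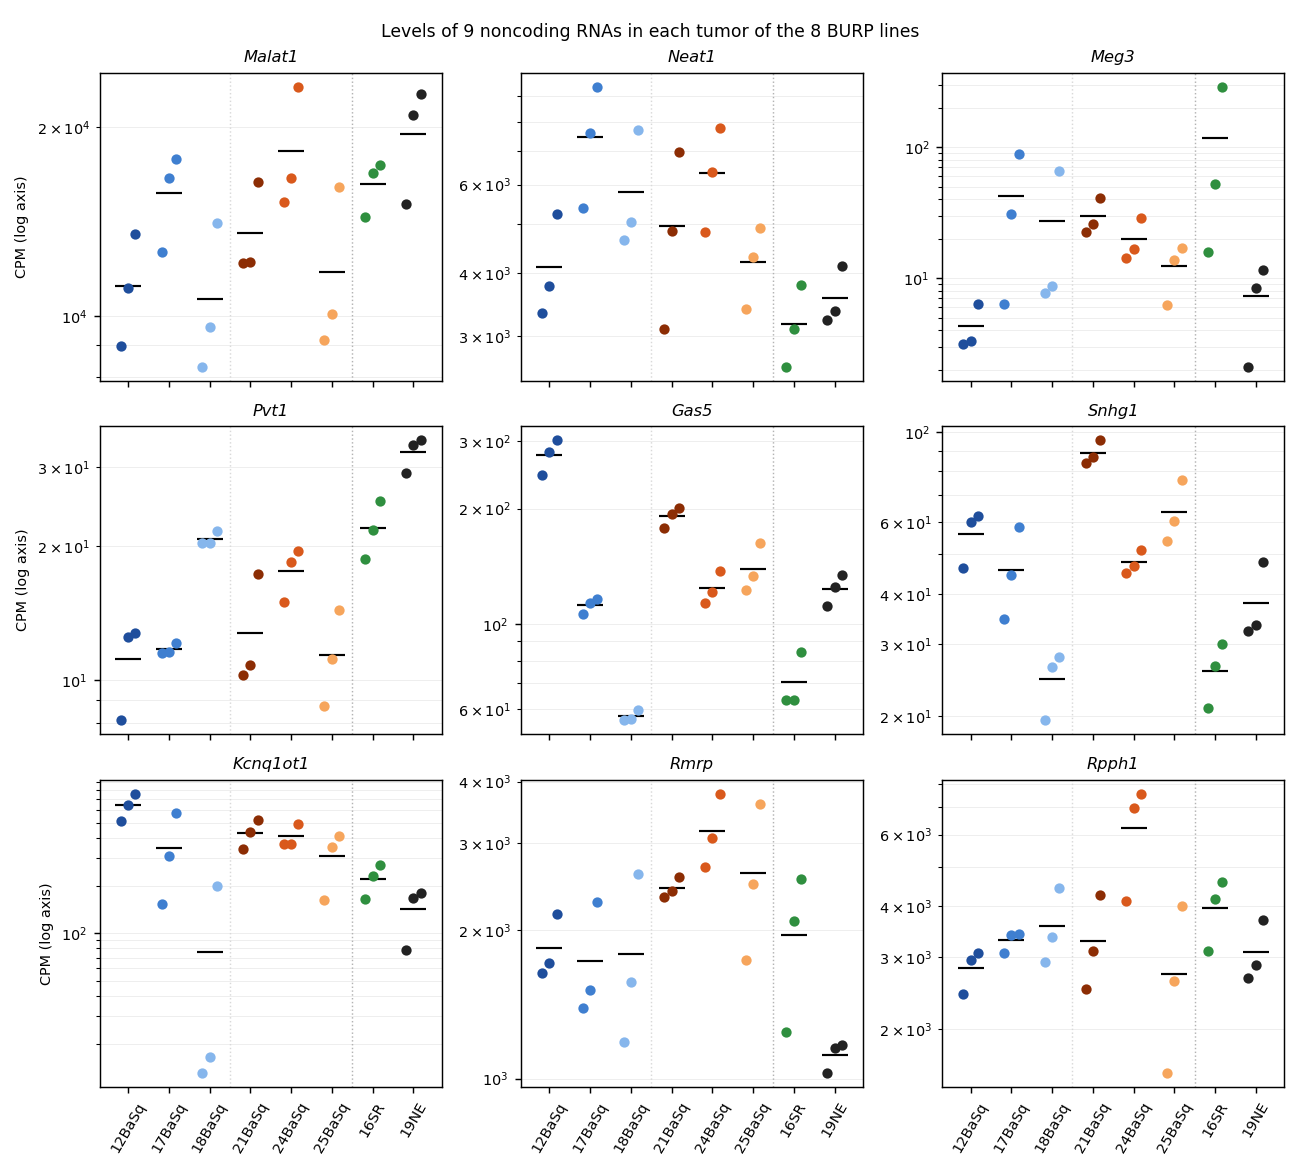
Level of each of the 9 RNAs in each tumor, as CPM on a log axis, by line, with male Ba/Sq lines left, female Ba/Sq lines in the middle and BURP-16SR and BURP-19NE right. Points are tumors, sorted by level within a line, and bars are line means (n = 3). Gas5 tumors lie close together within a line while Meg3 and Kcnq1ot1 tumors spread widely, with Kcnq1ot1 in BURP-18BaSq at 13.1, 16.5 and 198 CPM.

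Differences among the 8 lines passed for 9 of 9 members in edgeR's quasi-likelihood F test (adjusted p under 0.05), as they did for 76.7% of all genes. Among the 6 Ba/Sq lines alone, 4 of 9 passed, namely Gas5, Snhg1, Pvt1 and Rpph1, against 50.5% of all genes. Without both C102-M1 and C102-M30, Rmrp passed among the Ba/Sq lines too (edgeR adjusted p = 0.0287, against 0.0895 with all tumors). Malat1 passed among them without C102-M30 alone (edgeR adjusted p = 0.0471, against 0.157). Gas5 stood out among the 8 lines and among the Ba/Sq lines. Its F of 53.9 over the 8 lines was exceeded by 0.687% of genes, and its F of 61.4 over the Ba/Sq lines by 0.0682%. The SD of its line means was 0.72 on the log2 scale, and the pooled SD of tumors within a line was 0.15. Meg3 was the opposite, with an SD of line means of 1.27 and a within-line SD of 1.33, and the highest of the 24 tumors had 136 times the Meg3 of the lowest. For Malat1 that ratio was 2.79.

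The study's subtypes were addressed by setting BURP-19NE, and separately BURP-16SR, against the 18 Ba/Sq tumors, which serve as the control in both. Against them, 2 of 9 members passed in BURP-19NE, Pvt1 higher and Rmrp lower, where 33.4% of all genes passed, 15.5% higher and 17.9% lower. In BURP-16SR, 3 of 9 passed, Meg3 and Pvt1 higher and Snhg1 lower, where 25.1% of all genes passed, 13.8% higher and 11.3% lower. Between BURP-16SR and BURP-19NE, Meg3, Gas5 and Rmrp passed, 3 of 9, against 34.3% of all genes, and the tumors of 5 of 9 members did not overlap, against 51.7%. Between BURP-24BaSq and BURP-16SR, the pair that the study treated with cisplatin in other mice, the 4 that passed were Neat1, Gas5, Snhg1 and Kcnq1ot1, all higher in BURP-24BaSq, against 38% of all genes, of which 17.6% higher, and 5 of 9 did not overlap, against 53.5%. In comparisons of single lines, a drug response or a subtype cannot be told apart from the line itself. The members' counts were near the shares of all genes.

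**Figure D2:**
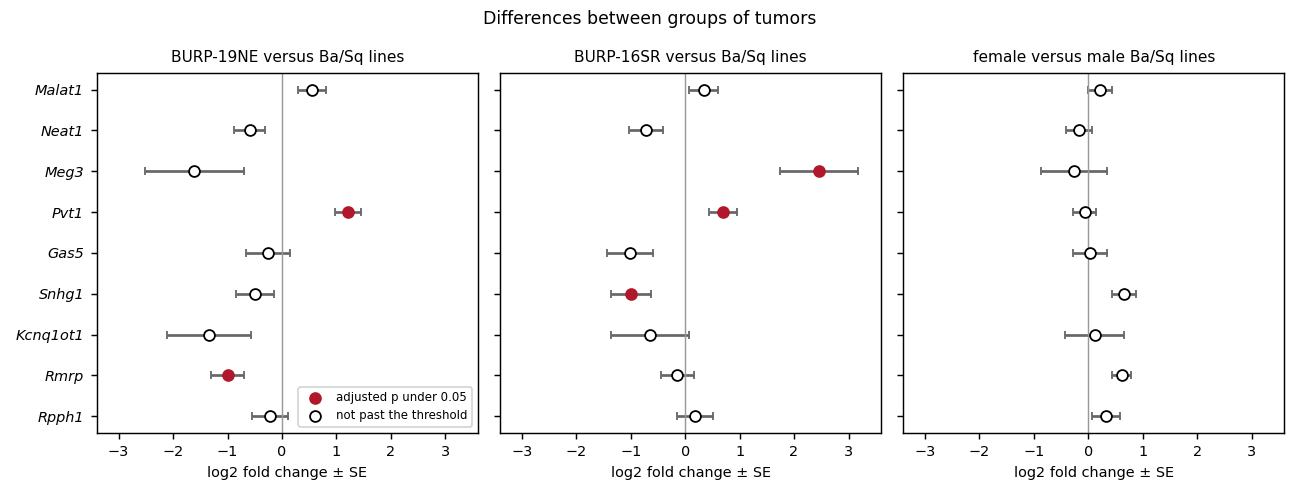
Log2 fold change of each RNA in BURP-19NE (n = 3) and BURP-16SR (n = 3) against the Ba/Sq tumors (n = 18), and in female (n = 9) against male (n = 9) Ba/Sq tumors, with bars of 1 SE. Filled points have an adjusted p under 0.05 in edgeR's quasi-likelihood test, which Pvt1 reached at 1.21 and 0.69 in the first 2 panels and no RNA reached in the third.

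Malat1 (chr19:5795690-5802672, minus strand, GRCm38) and Neat1 (chr19:5824708-5845478, minus strand) are neighbours. Malat1 was at 22560, 20900 and 15100 CPM in the tumors of BURP-19NE, with a mean of 19520 CPM ± 3919 (SD, n = 3). In BURP-16SR the tumors had 16910, 17390 and 14350 CPM of Malat1. The Ba/Sq tumors ran from 8305 to 23130 CPM with a median of 13060, so that both lines lay inside their range. The Malat1 difference of BURP-19NE, 0.55 on the log2 scale (SE 0.25), did not pass in edgeR's test (adjusted p = 0.0999). The line means of Malat1 were ordered from BURP-19NE down to BURP-18BaSq at 10650 CPM, and every neighbouring pair in that order overlapped. The call of Malat1 among the 8 lines (edgeR adjusted p = 0.0473) was lost in 17 of 31 alternatives, in which it ranged up to 0.0977. With CPM not scaled by TMM, BURP-25BaSq was the lowest line in place of BURP-18BaSq. The genes most like Malat1 over the 24 tumors were Atf6, a factor of the unfolded protein response (r = 0.79), Gm37702 (r = 0.76) and Nrp1, a semaphorin receptor (r = 0.76).

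Neat1 was highest in BURP-17BaSq, with 5389, 9370 and 7592 CPM, and lowest in BURP-16SR, with 3790, 2604 and 3091 CPM. BURP-19NE had 3355, 4122 and 3232 CPM of Neat1, and the Ba/Sq tumors 3092 to 9370 CPM with a median of 4980. All neighbours in the order of lines overlapped. Against the Ba/Sq tumors, the Neat1 differences were -0.59 in BURP-19NE (SE 0.29, adjusted p = 0.119) and -0.72 in BURP-16SR (SE 0.31, adjusted p = 0.0912) by edgeR's test, neither past the threshold. Without both C102-M1 and C102-M30 the latter passed (log2 -0.85, edgeR adjusted p = 0.0454). Against BURP-24BaSq alone, with 4826, 7765 and 6341 CPM, the tumors of BURP-16SR did not overlap, and Neat1 was 1.92-fold higher in BURP-24BaSq (log2 0.94, SE 0.30, edgeR adjusted p = 0.0448), a call that was lost in 5 of 13 alternatives. Most like Neat1 were Gm44699, a sense intronic transcript (r = 0.82), Ppp1r13l, a regulator of p53 (r = 0.80), and 1700001C19Rik (r = 0.79).

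The ratio of Malat1 to Neat1, each per kilobase, set both lines apart from the Ba/Sq lines as a description. It had a mean of 16.3 ± 3.24 (SD, n = 3) for BURP-19NE and of 15.65 ± 3.66 for BURP-16SR, while the means of the Ba/Sq lines ran from 5.46 in BURP-18BaSq to 8.85 in BURP-25BaSq. The highest Ba/Sq value, 14.1, was that of C102-M30, the library rich in ribosomal RNA, and it overlapped both lines. The other 17 Ba/Sq tumors had ratios up to 11.7, below the lowest BURP-16SR tumor at 13.3. The 2 RNAs themselves were only weakly related over the 24 tumors (r = 0.12, as a description of tumors that share lines).

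Of the proteins of paraspeckles, the bodies built on Neat1, 2 of 14 were higher in BURP-19NE than in the Ba/Sq tumors, near the 15.5% of all genes. These were Hnrnph3, at 31.4 CPM against 19.5 (log2 0.71, edgeR adjusted p = 0.0199), and Hnrnpk, at 447 CPM against 333 (log2 0.45, edgeR adjusted p = 0.0118), both RNA-binding proteins. None of the 14 passed in BURP-16SR against the Ba/Sq tumors. Against BURP-19NE, 5 of 14 were lower in BURP-16SR, among them Nudt21, a polyadenylation factor, at 35.6 CPM against 71.0. In that comparison 34.3% of all genes passed in either direction, and 56% of those were higher in BURP-16SR. The median log2 difference of the 14 in BURP-19NE was 0.10, against -0.14 over all genes. Of 17 nuclear speckle proteins, Srsf11, a splicing factor, was higher in BURP-19NE (log2 0.69, edgeR adjusted p = 0.00384), and none passed in BURP-16SR against the Ba/Sq tumors. Between BURP-16SR and BURP-19NE, Son, a speckle protein, and Srsf6 were higher and Sf3b1 lower, 3 of 17.

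Gas5 (chr1:161034422-161038539, plus strand) and Snhg1 (chr19:8723475-8726443, plus strand) hold snoRNA genes inside their annotated extents, and estimated counts on the hosts and the snoRNAs cannot be fully separated there. Their promoters are shown because both RNAs followed the line more closely than most genes did. The sequences come from RefSeq on GRCm38.p6 and were available for 5 of the 9 members. For Gas5, chr1:161034916-161035215 on the plus strand is given, from 250 bases before the RefSeq start on, with capitals marking the cAMP response element TGACGTCA, whose first base lies at -46. For Snhg1, chr19:8723370-8723536 on the plus strand is given, with capitals marking a TATAAA on the opposite strand, read here as TTTATA.

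Gas5 promoter: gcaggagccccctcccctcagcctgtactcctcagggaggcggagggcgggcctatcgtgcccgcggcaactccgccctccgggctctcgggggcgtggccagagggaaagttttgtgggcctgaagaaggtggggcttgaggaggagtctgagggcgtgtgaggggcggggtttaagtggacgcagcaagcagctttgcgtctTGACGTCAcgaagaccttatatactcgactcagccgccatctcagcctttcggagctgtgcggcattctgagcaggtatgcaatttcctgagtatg
Snhg1 promoter: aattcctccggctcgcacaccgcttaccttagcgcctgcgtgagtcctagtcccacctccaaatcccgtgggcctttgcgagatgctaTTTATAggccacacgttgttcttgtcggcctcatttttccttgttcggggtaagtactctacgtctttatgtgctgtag

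Counting both strands, TGACGTCA occurred in 1.79% and TATAAA in 13.6% of 32851 mouse promoters of the same length, and CCAAT in 37.4%. These matches describe letters and say nothing of binding in the tumors.

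Gas5 was at 245, 302 and 280 CPM in the BURP-12BaSq tumors (mean 276 CPM ± 28.4, SD, n = 3). At the other end, BURP-18BaSq had 59.6, 56.1 and 56.5 CPM of Gas5 (mean 57.4 CPM ± 1.90, SD, n = 3). All 3 tumors of BURP-12BaSq thus exceeded every other tumor, and all 3 of BURP-18BaSq lay below every other tumor. BURP-21BaSq came second with 201, 194 and 178 CPM. BURP-25BaSq followed with 133, 163 and 123 CPM, BURP-24BaSq with 121, 137 and 114 CPM, BURP-19NE with 125, 134 and 111 CPM, and BURP-17BaSq with 113, 116 and 106 CPM. These 4 lines overlapped their neighbours in the order, while the steps from BURP-12BaSq to BURP-21BaSq, from there to BURP-25BaSq, and from BURP-17BaSq down to BURP-16SR and BURP-18BaSq did not overlap. The Gas5 order separated lines of the same subtype and sex, since BURP-12BaSq and BURP-18BaSq are both male Ba/Sq lines.

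BURP-16SR had 63.2, 63.4 and 84.2 CPM of Gas5, a mean of 70.3 CPM ± 12.1 (SD, n = 3). Gas5 was 1.65-fold lower there than in BURP-19NE (log2 -0.72, SE 0.15, edgeR adjusted p = 0.0113). It was 1.70-fold higher in BURP-24BaSq than in BURP-16SR (log2 0.77, SE 0.16, edgeR adjusted p = 0.0101). Neither pair of lines overlapped, and the former call was lost in 1 of 13 alternatives, without C80-M3 (edgeR adjusted p = 0.0502). Against all 18 Ba/Sq tumors, from 56.1 to 302 CPM with a median of 128, the difference of -1.02 for BURP-16SR did not pass (edgeR adjusted p = 0.0843), nor did that of -0.26 for BURP-19NE (edgeR adjusted p = 0.648).

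Snhg1 was highest in BURP-21BaSq, at 95.4, 87.0 and 83.9 CPM (mean 88.7 CPM ± 5.94, SD, n = 3), above every tumor of the other lines. It was lowest in BURP-18BaSq, at 27.9, 19.6 and 26.5 CPM, and BURP-16SR was near, at 20.9, 26.6 and 30.2 CPM. BURP-19NE, at 32.4, 33.6 and 47.8 CPM, did not overlap BURP-16SR, whereas the 5 lines from BURP-25BaSq to BURP-19NE overlapped their neighbours. Against the Ba/Sq tumors, at 19.6 to 95.4 CPM with a median of 52.7, Snhg1 was 2.003-fold lower in BURP-16SR (log2 -1.002, SE 0.37, edgeR adjusted p = 0.0490), with overlap through BURP-18BaSq. That call was lost in 18 of 29 alternatives, among them without both C102-M1 and C102-M30 (log2 -1.08, edgeR adjusted p = 0.0527). The difference from BURP-24BaSq alone, at 46.8, 51.4 and 45.1 CPM, was 1.78-fold (log2 0.83, SE 0.17, edgeR adjusted p = 0.00893), with no overlap, and passed in 13 of 13 alternatives, as did that of Gas5.

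**Figure D3:**
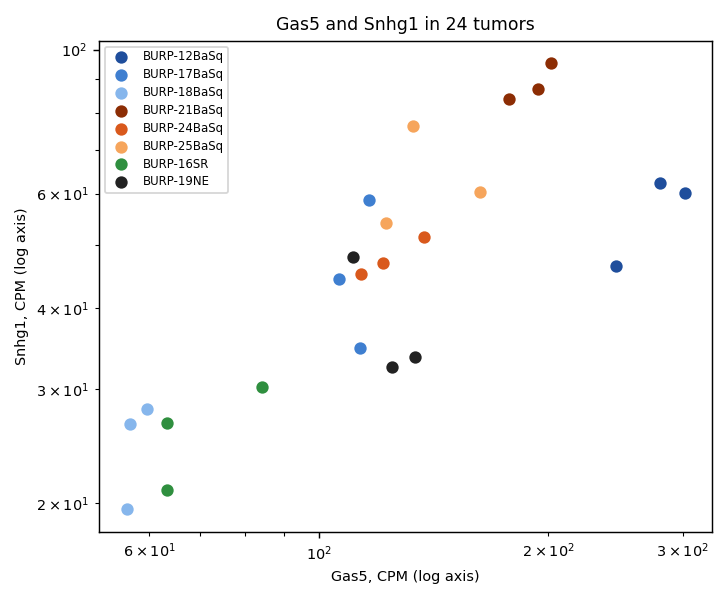
Gas5 against Snhg1 in the 24 tumors, both as CPM on log axes, with a color for each line. The tumors of a line lie near each other, with BURP-18BaSq (Gas5 mean 57.4 CPM, Snhg1 mean 24.6 CPM) and BURP-16SR at the low end, BURP-21BaSq and BURP-12BaSq at the high end and the other 4 lines mixed between them.

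Over the 24 tumors Gas5 and Snhg1 went together (Pearson r = 0.80, Spearman rho = 0.81), while their deviations from the line means were only weakly related (r = 0.28). The relation is thus mainly one between lines, and the tumors of a line share a donor. BURP-12BaSq departed from it, with a ratio of Gas5 to Snhg1 per kilobase of 3.90 ± 0.317 (SD, n = 3), above the 1.70 to 2.67 of the other line means. The gene most like Gas5 among 21382 genes was Zfas1, another snoRNA host (r = 0.92, n = 24 tumors), which ran from 130 CPM in BURP-12BaSq down to 20.3 CPM in BURP-18BaSq. Mmaa (r = 0.89) and Gm5148 (r = 0.88) followed. Most like Snhg1 were Car13, a carbonic anhydrase (r = 0.90), the transcription factor Hlf (r = 0.89) and Trp53, which encodes p53 (r = 0.88).

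Of 16 other snoRNA hosts tested, 3 were lower in BURP-19NE than in the Ba/Sq tumors, near the 17.9% of all genes, among them 1810032O08Rik, known as Snhg16 (8.45 CPM against 17.2, log2 -1.003, edgeR adjusted p = 0.000463), and Snhg15 (5.54 CPM against 10.1, log2 -0.83, edgeR adjusted p = 0.0279). None of the 16 passed in BURP-16SR. Against BURP-16SR, 4 of 14 were lower in BURP-24BaSq, among them Snhg14 (log2 -1.36) and Epb41l4aos (log2 -1.47), the opposite direction to Gas5 and Snhg1. Of all genes, 38% passed in that comparison, 17.6% as higher in BURP-24BaSq and the rest as lower, so that the count is near the share of all genes. Of 8 factors of nonsense-mediated decay, which degrades the spliced hosts, Upf3b was higher in BURP-19NE (47.7 CPM against 28.3, log2 0.78, edgeR adjusted p = 0.00564) and none passed in BURP-16SR against the Ba/Sq tumors. Smg6, an endonuclease of the pathway, was higher in BURP-16SR than in BURP-19NE (log2 0.62) and lower in BURP-24BaSq than in BURP-16SR (log2 -0.63), where Upf3a was also lower. Upf1, the central helicase, was lower in BURP-16SR than in BURP-19NE (log2 -0.57, edgeR adjusted p = 0.0490).

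Meg3 (chr12:109541001-109571726, plus strand) and Kcnq1ot1 (chr7:143203458-143296549, minus strand) are imprinted RNAs. Kcnq1ot1 runs antisense inside Kcnq1 and shares 121 exon bases with it, and whether the counting used strand is not given in the sources used here. Their promoters are shown because these 2 RNAs varied most within lines. For Meg3, chr12:109540746-109541045 on the plus strand is given, with capitals marking a CCAAT at -100, a TGACGTCA at -57 and a TATAAA on each strand at -29 and -25, which overlap. For Kcnq1ot1, chr7:143296498-143296797 on the minus strand is given, with capitals marking 3 CCAAT boxes at -188, -148 and -67.

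Meg3 promoter: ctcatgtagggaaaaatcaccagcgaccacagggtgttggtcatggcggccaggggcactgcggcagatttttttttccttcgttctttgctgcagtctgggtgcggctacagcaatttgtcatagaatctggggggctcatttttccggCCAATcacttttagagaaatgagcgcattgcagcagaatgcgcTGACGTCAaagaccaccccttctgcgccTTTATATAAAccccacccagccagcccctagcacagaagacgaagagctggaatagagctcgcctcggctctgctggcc
Kcnq1ot1 promoter: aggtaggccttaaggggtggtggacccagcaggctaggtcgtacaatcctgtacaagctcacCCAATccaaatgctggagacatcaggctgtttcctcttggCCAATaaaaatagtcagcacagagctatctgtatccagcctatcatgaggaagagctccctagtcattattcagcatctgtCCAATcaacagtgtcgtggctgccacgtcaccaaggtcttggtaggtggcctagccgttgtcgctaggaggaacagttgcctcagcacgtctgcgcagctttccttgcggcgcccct

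Meg3 was at 52.3, 287 and 15.8 CPM in the BURP-16SR tumors C73-M10, C74-MNT and P5, and C74-MNT had 5.48 times the level of C73-M10 and 18.1 times that of P5. The Ba/Sq tumors ran from 3.13 to 89.1 CPM with a median of 15.5, and overlapped BURP-16SR. Meg3 was 5.51-fold higher in BURP-16SR than in the Ba/Sq tumors (log2 2.46, SE 0.71, edgeR adjusted p = 0.0148). Without C74-MNT the difference fell to 0.66 on the log2 scale and no longer passed (edgeR adjusted p = 0.66), so that the call rests on this library. BURP-19NE had 8.42, 2.11 and 11.5 CPM of Meg3, below all 3 BURP-16SR tumors, and the difference between the 2 lines passed (log2 4.12, SE 1.19, edgeR adjusted p = 0.0378). It was lost in 5 of 13 alternatives, namely without C74-MNT (log2 2.31, edgeR adjusted p = 0.0746), without C73-M10 (edgeR adjusted p = 0.0624) or without any single BURP-19NE tumor (edgeR adjusted p from 0.09 to 0.117).

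Other lines also held 1 tumor with much more Meg3 than the rest. In BURP-17BaSq, C152-M1 had 89.1 CPM, C165-M30 6.38 and P4 31.1 CPM. In BURP-18BaSq, P4 had 66.2 CPM, against 7.69 in C148-M3 and 8.75 in C149-M3. The fibroblast markers varied in step. Their summed CPM, over 10 genes that include Col1a1 and Dcn, was 7829, 20830 and 630 in C73-M10, C74-MNT and P5 of BURP-16SR. It was 10370, 405 and 3339 CPM in C152-M1, C165-M30 and P4 of BURP-17BaSq. In BURP-18BaSq it was 6088 CPM in P4, against 467 in C148-M3 and 647 in C149-M3. Over the 24 tumors the log2 level of Meg3 followed the log2 fibroblast sum with r = 0.88 and rho = 0.85, and deviations from line means with r = 0.93. The smooth muscle sum gave r = 0.92 and the endothelial sum r = 0.80. None of the 10 fibroblast markers was at 0 in any tumor. In bulk tumors, a larger share of a cell type and more RNA per cell cannot be told apart, and the part of fibroblast content in the Meg3 differences was not tested.

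**Figure D4:**
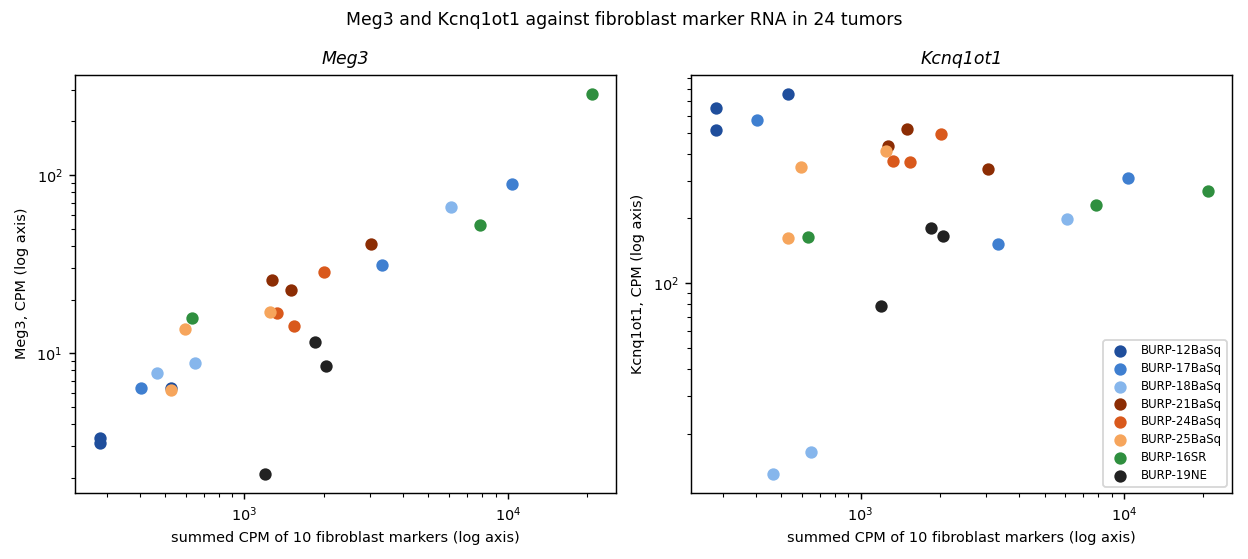
Meg3 (left) and Kcnq1ot1 (right) against the summed CPM of 10 fibroblast markers in the 24 tumors, all on log axes, with a color for each line. Meg3 follows the fibroblast axis (r = 0.88, and 0.93 within lines), and Kcnq1ot1 does so only within lines and less closely (r = 0.04, and 0.41 within lines), with 2 BURP-18BaSq tumors at 13.1 and 16.5 CPM far below the rest.

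Rian, another noncoding RNA of the imprinted Dlk1-Dio3 domain that holds Meg3, was the gene most like Meg3 of 21382 (r = 0.98, n = 24 tumors), followed by Col5a2 (r = 0.97) and Sparc (r = 0.97), both matrix genes. Rian was at 19.3, 127 and 8.95 CPM in C73-M10, C74-MNT and P5. Of the 7 other genes of the domain, 4 were higher in BURP-16SR than in the Ba/Sq tumors, where 13.8% of all genes were higher. Rian had a log2 difference of 2.34 (edgeR adjusted p = 0.0218), Mirg, a noncoding RNA, of 2.43 (adjusted p = 0.0126 by edgeR), and Rtl1, a paternally expressed gene, of 2.63 (edgeR adjusted p = 0.00844). Mirg averaged 6.73 CPM ± 8.53 (SD) in BURP-16SR. Whether the calls of Rian and Mirg rest on C74-MNT, as that of Meg3 does, was not tested. Dlk1, a paternally expressed Notch-related membrane protein, differed most (log2 5.85, SE 0.88, edgeR adjusted p = 4.6e-05). Dlk1 did not share the order of Meg3 within the line. It was at 21.8 CPM in C73-M10, 5.11 in C74-MNT and 39.8 CPM in P5, highest where Meg3 and the fibroblast markers were lowest, and no Ba/Sq tumor exceeded 3.604 CPM. The median log2 difference of the 7 was 2.40, against -0.03 over all genes. In BURP-19NE none of the 6 tested passed.

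Kcnq1ot1 was at 13.1 CPM in C148-M3 and 16.5 CPM in C149-M3 of BURP-18BaSq, and at 198 CPM in the other tumor, P4. P4 thus had 15.2 and 12.0 times the level of its sister tumors. Markers of other cell types were also highest in P4, where macrophage markers summed to 633 CPM, against 153 and 20.3 CPM in C148-M3 and C149-M3, and skeletal muscle markers to 32.5 CPM, against 0 and 1.46 CPM, beside the fibroblast sums given above. Over deviations from the line means, Kcnq1ot1 had r = 0.41 with the fibroblast, 0.44 with the macrophage and 0.50 with the skeletal muscle sum, and the part of these cells in its differences was not tested. The lowest tumor outside BURP-18BaSq was C80-M3 of BURP-19NE, at 78.7 CPM, with its sister tumors at 166 and 181 CPM. BURP-12BaSq had the most, at 515, 761 and 649 CPM (mean 642 CPM ± 123, SD, n = 3), and the highest of the 24 tumors had 58.3 times the Kcnq1ot1 of the lowest. BURP-17BaSq was again spread (mean 345 CPM ± 214, SD, n = 3), with 575 CPM in C165-M30, 307 CPM in C152-M1 and the least in P4. All neighbours in the order of lines overlapped. With P4 of BURP-18BaSq left out, the Ba/Sq lines differed in Kcnq1ot1 (edgeR adjusted p = 0.000379), which they did not with it (adjusted p = 0.08 by edgeR).

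Neither BURP-19NE (log2 -1.34, SE 0.77, edgeR adjusted p = 0.182) nor BURP-16SR (log2 -0.65, SE 0.72, edgeR adjusted p = 0.541) passed against the Ba/Sq tumors, which ran from 13.1 to 761 CPM with a median of 367. BURP-16SR, at 231, 268 and 164 CPM, did not overlap BURP-24BaSq, at 368, 491 and 366 CPM, and Kcnq1ot1 was 1.77-fold higher in the latter (log2 0.82, SE 0.25, edgeR adjusted p = 0.0385). This call was lost in 5 of 13 alternatives. Most like Kcnq1ot1 were Zfp455 (r = 0.87), a zinc finger gene, the transcription factor Trps1 (r = 0.86) and Gm11131 (r = 0.85), with Spearman's rho from 0.58 to 0.72.

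In P4 of BURP-18BaSq, Kcnq1, the channel gene around Kcnq1ot1, was at 33.2 CPM, against 1.10 and 2.15 CPM in the 2 tumors low in Kcnq1ot1. The same did not hold elsewhere, since Kcnq1 was at 33.5 CPM in C102-M3 of BURP-25BaSq, which had the least Kcnq1ot1 of its line, and at 1.28 CPM on average in BURP-12BaSq, which had the most. Slc22a18, a transporter gene of the domain, was at 28.7, 31.7 and 41.9 CPM in C148-M3, C149-M3 and P4, above all other tumors, of which the highest had 20.6 CPM. Cdkn1c, the cell cycle inhibitor of the domain, was at 3.30, 4.204 and 7.43 CPM. Of 10 other genes of the Kcnq1 domain, 3 were lower in BURP-19NE than in the Ba/Sq tumors, namely Cdkn1c (0.494 CPM against 5.04, log2 -3.31, edgeR adjusted p = 0.00607), Ascl2, a transcription factor (log2 -2.55, edgeR adjusted p = 0.0112), and Phlda2, a growth-restricting gene (log2 -2.40, edgeR adjusted p = 0.0126). In BURP-16SR 2 of 10 were lower, Phlda2 (log2 -2.64) and Ascl2 (log2 -3.24). Of all genes, 17.9% were lower in BURP-19NE and 11.3% in BURP-16SR. Ascl2 averaged 0.092 CPM in BURP-19NE and 0.054 CPM in BURP-16SR, under the floor of 3 counts, against 0.566 CPM in the Ba/Sq tumors. Phlda2 averaged 0.562 CPM in BURP-19NE and 0.462 CPM in BURP-16SR, against 3.08 CPM in the Ba/Sq tumors. Ascl2 and Phlda2 could enter both tests only through the Ba/Sq tumors and could only come out lower. No count over the domain is therefore read here. Cdkn1c was higher in BURP-16SR than in BURP-19NE, at 13.6 CPM against 0.494 (log2 4.87, SE 0.63, edgeR adjusted p = 0.00267), as was Nap1l4, while Kcnq1 (log2 -2.49) and Cd81 (log2 -1.09) were lower. BURP-24BaSq had more Phlda2 and Cd81 and less Cdkn1c and Slc22a18 than BURP-16SR. Phlda2 could enter that test only through BURP-24BaSq and could only come out higher.

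Pvt1 (chr15:62037986-62378096, plus strand) separated BURP-19NE most clearly. It was at 29.1, 34.5 and 33.7 CPM in BURP-19NE (mean 32.4 CPM ± 2.88, SD, n = 3), above every other tumor. BURP-16SR followed at 18.7, 21.8 and 25.3 CPM (mean 21.9 CPM ± 3.30, SD, n = 3), and the Ba/Sq tumors ran from 8.13 to 21.5 CPM with a median of 12.6. Pvt1 was 2.32-fold higher in BURP-19NE than in the Ba/Sq tumors (log2 1.21, SE 0.24, edgeR adjusted p = 0.000516), without overlap, which 18% of genes also showed. That difference passed in 29 of 29 alternatives, with adjusted p from 2e-06 to 0.0072. In BURP-16SR the difference was 1.62-fold (log2 0.69, SE 0.25, edgeR adjusted p = 0.0465), with overlap, and it was lost in 18 of 29 alternatives, among them without both C102-M1 and C102-M30 (log2 0.58, edgeR adjusted p = 0.0921). BURP-19NE and BURP-16SR did not overlap, but their difference did not pass (log2 -0.48, SE 0.16, edgeR adjusted p = 0.0555).

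Within the Ba/Sq lines, BURP-18BaSq had the most Pvt1, at 20.3, 20.3 and 21.5 CPM, above BURP-24BaSq at 18.4, 19.5 and 14.9 CPM without overlap. The other 4 Ba/Sq lines had means from 11.1 to 12.8 CPM and overlapped their neighbours. BURP-17BaSq was the most even, at 12.1, 11.5 and 11.5 CPM, although fibroblast markers ran from 405 to 10370 CPM in its tumors. Over the 24 tumors, which share lines, Pvt1 had r = -0.72 with the epithelial marker sum and r = 0.72 with the neuroendocrine one, but r = 0.06 and -0.06 for deviations from the line means. The epithelial and neuroendocrine markers differ between the same lines as Pvt1, and their part in the Pvt1 difference was not tested. Most like Pvt1 were Wnt7b (r = 0.90), a Wnt ligand, Fam118b (r = 0.88) and Akap11 (r = 0.87), an anchoring protein.

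Myc, the neighbour of Pvt1, went the other way in BURP-19NE. It was at 64.2, 69.0 and 61.2 CPM there (mean 64.8 CPM ± 3.91, SD, n = 3), while the mean over the 18 Ba/Sq tumors was 152.1 CPM ± 40.95 (SD), and passed as lower (log2 -1.21, SE 0.26, edgeR adjusted p = 0.00113). Fam49b was lower as well (log2 -0.83, edgeR adjusted p = 0.0215). Gsdmc and Gsdmc2, gasdermin genes, had 0 counts in all BURP-19NE and BURP-16SR tumors, where the Ba/Sq tumors had means of 13.8 and 28.0 CPM and reached down to 0.153 and 0.155 CPM. Against a floor of 3 counts per library, Gsdmc was at least 87.1-fold lower in BURP-19NE and at least 54.1-fold lower in BURP-16SR, and Gsdmc2 at least 177-fold and 110-fold lower. Both gasdermin genes could enter the test only through the Ba/Sq tumors and could only come out lower, so that no count over the neighbours is read here. In BURP-16SR neither Myc (log2 0.09, edgeR adjusted p = 0.85) nor Fam49b (log2 -0.12) passed. In BURP-16SR Myc was at 208, 69.9 and 185 CPM, and it passed as higher than in BURP-19NE (log2 1.34, edgeR adjusted p = 0.0349). Against BURP-16SR, Fam49b was higher in BURP-24BaSq. Gsdmc and Gsdmc2 passed there as well. With 0 counts in BURP-16SR, they could enter that test only through BURP-24BaSq and could only come out higher.

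Rmrp is annotated under 2 identifiers on chromosome 4, minus strand, as a ribozyme of 271 bases (chr4:43492788-43493058) and as a lincRNA of 281 bases (chr4:43492783-43493063). Both overlap an exon of Ccdc107 on the opposite strand by up to 124 bases. The longer model is printed from GRCm38 because the 2 identifiers differ by 5 bases at each end only, shown in capitals, so that the estimator had little to divide the reads by.

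Rmrp transcript: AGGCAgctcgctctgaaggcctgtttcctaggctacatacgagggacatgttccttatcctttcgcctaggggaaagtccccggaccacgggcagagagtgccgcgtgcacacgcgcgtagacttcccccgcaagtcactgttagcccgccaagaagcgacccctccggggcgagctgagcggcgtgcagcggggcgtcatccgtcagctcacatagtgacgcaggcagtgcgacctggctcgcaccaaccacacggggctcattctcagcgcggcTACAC

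The longer model took from 15.4% to 28.5% of the Rmrp counts in 23 tumors and 3.97% in C102-M30. Rmrp, as the sum, was at 1152, 1026 and 1169 CPM in BURP-19NE (mean 1116 CPM ± 78.3, SD, n = 3), below every other tumor. The Ba/Sq tumors ran from 1187 to 3780 CPM with a median of 2311. Rmrp was 1.99-fold lower in BURP-19NE (log2 -0.996, SE 0.30, edgeR adjusted p = 0.0146), and this passed in 27 of 29 alternatives, but not without C80-M1 (adjusted p = 0.051) or without C80-M3 (adjusted p = 0.0715), each of which leaves 2 tumors in BURP-19NE. Each identifier alone gave the same direction, -0.91 for the shorter (edgeR adjusted p = 0.0262) and -1.36 for the longer (edgeR adjusted p = 0.0161). BURP-16SR, at 1241, 2535 and 2082 CPM, was higher than BURP-19NE (log2 0.90, SE 0.28, edgeR adjusted p = 0.0482), which was lost in 7 of 13 alternatives, and it did not pass against the Ba/Sq tumors (log2 -0.14, edgeR adjusted p = 0.764).

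Rpph1 (chr14:50807449-50807767, minus strand) shares 233 bases with an exon of Ccnb1ip1 on the same strand. It did not follow Rmrp in BURP-19NE, where it was at 3712, 2879 and 2675 CPM, inside the 1560 to 7562 CPM of the Ba/Sq tumors (log2 -0.22, SE 0.33, edgeR adjusted p = 0.632). BURP-24BaSq had the most Rpph1, at 7562, 6971 and 4121 CPM (mean 6218 CPM ± 1840, SD, n = 3), and also the most Rmrp, at 3071, 3780 and 2680 CPM, though P2, its lowest tumor, overlapped other lines for both. The 6 Ba/Sq lines differed in Rpph1 (edgeR adjusted p = 0.0334), but the call was lost in 6 of 25 alternatives, all of them 1 tumor fewer, with the highest adjusted p without C81-M1 (0.173) or C81-M30 (0.13) of BURP-24BaSq. All neighbours in the order of lines overlapped for Rpph1, and for Rmrp all but BURP-17BaSq and BURP-19NE.

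**Figure D5:**
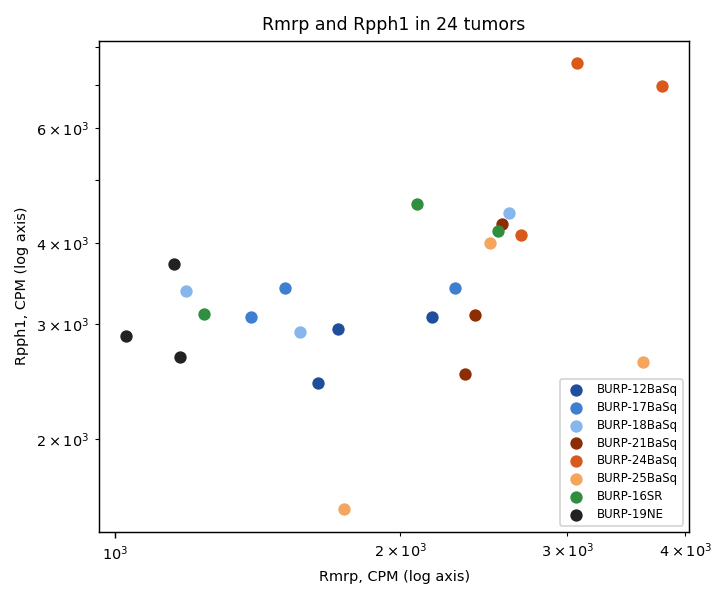
Rmrp against Rpph1 in the 24 tumors, both as CPM on log axes, with a color for each line. The 3 BURP-19NE tumors are leftmost, at 1026 to 1169 CPM of Rmrp, and 2 BURP-24BaSq tumors at 7562 and 6971 CPM of Rpph1 are uppermost.

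Per kilobase, Rpph1 exceeded Rmrp 2.44 ± 0.413 times (SD, n = 3) in BURP-19NE and 0.950 ± 0.414 times in BURP-25BaSq, and the ratio of single tumors ran from 0.641 to 2.84. Rmrp and Rpph1 had r = 0.48 over the 24 tumors and 0.55 within lines. Among the genes most like Rmrp were Thada (r = 0.83) and Gm19510 (r = 0.80), and those most like Rpph1 were Tbc1d14 (r = 0.80), an autophagy regulator, Gm17207 (r = 0.77) and Gm45100 (r = 0.76). Of the 11 proteins that RNase P and RNase MRP are built from, 2 were lower in BURP-19NE than in the Ba/Sq tumors, near the 17.9% of all genes. Pop1, the largest subunit, was at 9.79 CPM against 16.1 (log2 -0.69, edgeR adjusted p = 0.0252), and Pop5 at 7.25 against 12.6 CPM (log2 -0.77, edgeR adjusted p = 0.00668). None of the 11 passed in BURP-16SR. Between BURP-16SR and BURP-19NE, Pop1 was higher (log2 1.23) and Rpp40 (log2 -1.79) and Rpp30 (log2 -0.87) were lower. Rpp21 and Rpp30 were higher in BURP-24BaSq than in BURP-16SR.

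Of 13 other short structured RNAs, Vaultrc5, a vault RNA, was lower in BURP-19NE than in the Ba/Sq tumors (1.05 CPM against 12.7, log2 -3.57, edgeR adjusted p = 0.00283), and it was the only one of the 13 that passed. In BURP-16SR, Rn7s1, a 7SL RNA gene with close copies among which reads are divided, was higher (log2 1.77, edgeR adjusted p = 0.0236), and Terc, the telomerase RNA, lower (8.32 CPM against 25.5, log2 -1.55, edgeR adjusted p = 0.00309). Rn7s1 reached 32990 to 90490 CPM in BURP-18BaSq, a male Ba/Sq line, as well as 38460 to 119700 CPM in BURP-16SR. Terc was also 2.15 higher on the log2 scale in BURP-24BaSq than in BURP-16SR (edgeR adjusted p = 0.00278).

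Female and male Ba/Sq lines, 9 tumors each, were compared because the study offers its lines as models of both sexes. None of the 9 members passed in edgeR's test, where 5.45% of all genes did, and 2 of 9, Rmrp and Snhg1, had an unadjusted p under 0.05, as had 23.1% of all genes. DESeq2 passed both of them, Rmrp (adjusted p = 0.00647) and Snhg1 (adjusted p = 0.0461). Rmrp ran from 1743 to 3780 CPM with a median of 2559 in the female tumors and from 1187 to 2604 CPM with a median of 1638 in the male ones. The log2 difference was 0.61 (SE 0.18, edgeR adjusted p = 0.0516), and the 3 female line means, 2432, 3177 and 2611 CPM, all exceeded the male ones, 1838, 1728 and 1786 CPM. The adjusted p of Rmrp ranged from 0.00647 to 0.759 over 34 alternatives and was under 0.05 in 9 of them. Without both C102-M1 and C102-M30 it was 0.0403 by edgeR. Taken apart, the shorter Rmrp identifier passed (log2 0.68, edgeR adjusted p = 0.0268) and the longer did not (log2 0.38, edgeR adjusted p = 0.464).

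Snhg1 had a log2 difference of 0.66 (SE 0.22, edgeR adjusted p = 0.0884), with female tumors at 45.1 to 95.4 CPM and male ones at 19.6 to 62.3 CPM. Gas5 showed no such difference (log2 0.03, SE 0.32), its medians being 137 CPM in female and 113 CPM in male tumors. Without the line BURP-12BaSq, which has the most Gas5, Gas5 (log2 0.83, edgeR adjusted p = 0.0251) and Snhg1 (log2 0.91, edgeR adjusted p = 0.0307) passed as higher in females. Without BURP-18BaSq, the male line with the least Gas5, the Gas5 difference had the opposite sign and did not pass (log2 -0.32, edgeR adjusted p = 0.519). With 3 lines of each sex, a difference between lines and one between sexes cannot be told apart beyond the lines' own spread. Of the protein subunits, Rpp30 was higher in females (7.29 CPM against 3.71, log2 0.96, edgeR adjusted p = 0.0201), 1 of 11. That call was lost with counts summed per line (edgeR adjusted p = 0.772), in limma-voom with line as a random effect (adjusted p = 0.30, estimated correlation within lines 0.476) and without both C102-M1 and C102-M30 (edgeR adjusted p = 0.0506). Under either fit that takes the line into account, no gene passed between the sexes, while 1387 and 1569 genes had an unadjusted p under 0.05.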

How the data were processed

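RNA from 24 allograft tumors, 3 of each of 8 lines, was sequenced by the authors after depletion of ribosomal RNA from 500 ng of total RNA. The authors deposited estimated counts per gene (expected counts). The submitters' processing notes name CASAVA 1.8.2, STAR 2.6.0a and RSEM 1.3.1, and the study's methods give GRCm38 with GENCODE M16. The strand setting of the counting is not given in the sources used here. Of the deposited estimated counts, 12.5% were not whole, and all were rounded. No sample column was left unused.

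Each comparison was fitted on its own tumors with R 4.3.3 and edgeR 4.0.16 (filterByExpr, TMM, quasi-likelihood test, not robust, log2 values with a prior count of 2), with Benjamini-Hochberg adjustment over all genes tested and a threshold of 0.05. The levels are CPM. Lines were compared by an F test, and Pearson's r was taken on log2 CPM. DESeq2 1.42.0 and limma 3.58.1 served as alternatives, beside other scalings and filters (none, or at least 10 counts in every tumor), removal of ribosomal RNA genes, all 24 tumors in 1 fit, counts summed per line, and leaving out each tumor or line. Leaving out C102-M1 and C102-M30 together, leaving out C102-M1, line-aware fits of the genes named between the sexes, summing the 2 Rmrp identifiers and fitting them apart were chosen after the data were seen. The procedures were tested on simulated data. Depth per tumor and the floor of 3 counts are given with the results, and they cover counting error only.

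Gene models came from GENCODE M21 on GRCm38, in which 53360 of the 53465 identifiers (99.8%) were found, and promoters from RefSeq. Named are all members, up to 2 genes per direction of each list and comparison with the largest change past the threshold, and the 3 genes most like each member, of which 1 is not reported here. Genes named beside these were chosen after their values were seen. The lists were paraspeckle and nuclear speckle proteins, snoRNA hosts, nonsense-mediated decay factors, the Dlk1-Dio3 and Kcnq1 domains, the neighbours of Pvt1, RNase P and MRP proteins, short structured RNAs, other long noncoding RNAs and cell type markers. The members and lists were chosen with earlier results of these data known. Replicate numbers follow the order of deposit. The labels give no sequencing batch, and since the tumors of a line share a donor, p-values measure the spread between tumors, not donors.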

Additional observations from a re-analysis of the deposited data

Results flagged for a closer look

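Kcnq1ot1 in C102-M3 of BURP-25BaSq, at 163 CPM, lay apart from the other female Ba/Sq tumors. It was the lowest of the 9, and on the log2 scale its gap to the next tumor was 0.631 of their whole range, above Dixon's critical share for 9 tumors. The other 8 ran from 338 to 519 CPM. For the 9 members 18 groups of 9 tumors (male and female Ba/Sq) were examined, and chance flags a share of about 0.05 of such groups. The same tumor had 33.5 CPM of Kcnq1, the highest of the 24 tumors. The cause was not tested.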

How the results depend on the processing

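No paired analysis was possible because the labels' cage, mouse and passage marks do not tie tumors of different lines to each other, and the replicate numbers only follow the order of deposit. With 1 tumor left out, the number of members past the threshold ranged from 1 to 3 in BURP-19NE against the Ba/Sq tumors (2 in the report), from 0 to 4 in BURP-16SR against them (3 in the report, and 0 without C74-MNT), from 0 to 3 between BURP-16SR and BURP-19NE, from 2 to 5 between BURP-24BaSq and BURP-16SR, from 7 to 9 among 8 lines and from 3 to 6 among 6 Ba/Sq lines. Between the sexes it ranged from 0 to 2 with 1 tumor or line left out. With all 24 tumors in 1 fit, the counts were 4 in BURP-19NE (adding Malat1, log2 0.56, and Snhg1, log2 -0.42), 5 in BURP-16SR and 3 between the sexes. DESeq2 gave 5 in BURP-16SR (adding Neat1, log2 -0.73, and Gas5, log2 -1.03), 2 between the sexes and 7 among the Ba/Sq lines. Between the sexes, 1 member passed with DESeq2 size factors, with at least 10 counts in every tumor, with ribosomal RNA genes removed or without both C102-M1 and C102-M30, each time Rmrp.

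Differences between the sexes that did not pass changed sign. Meg3 was at 0.1625 with all 24 tumors in 1 fit and at 0.2514 in limma-voom with line as a random effect, Gas5 at -0.0135 with counts summed per line, and Pvt1 at 0.0131 without both C102-M1 and C102-M30. With 1 tumor or line left out, the log2 difference between the sexes ranged from -0.3171 to 0.8334 for Gas5, from -0.3238 to 0.8623 for Kcnq1ot1, from -0.7628 to 0.363 for Meg3, from -0.3707 to 0.0454 for Neat1, from -0.2506 to 0.321 for Pvt1 and from -0.083 to 0.5349 for Rpph1. With 1 tumor left out, BURP-16SR against the Ba/Sq tumors ranged from -0.3949 to 0.0852 for Rmrp and from -0.0111 to 0.3105 for Rpph1, BURP-16SR against BURP-19NE from -0.2758 to 0.0283 for Neat1, and BURP-24BaSq against BURP-16SR from -0.075 to 0.2478 for Malat1. The cause was not tested.

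Counts over all genes moved too. At least 10 counts in every tumor, which tests fewer genes, took the 7022 genes called in BURP-19NE to 3830, the 5276 in BURP-16SR to 2890, and the 16410 among 8 lines to 9456. The 977 genes between the sexes became 2071 in DESeq2, 4205 with all 24 tumors in 1 fit, 599 without both C102-M1 and C102-M30, and 0 both with counts summed per line and in limma-voom. With 1 tumor or line left out the counts were 4252 to 7383 in BURP-19NE, 3037 to 5762 in BURP-16SR, 3365 to 7867 between BURP-16SR and BURP-19NE, 4470 to 8607 between BURP-24BaSq and BURP-16SR, and 406 to 2191 between the sexes. Other scalings moved the median of all genes by less than 0.1 (log2), and testing without a filter took it from -0.14 to -0.443 in BURP-19NE. Pvt1 in BURP-19NE and Gas5 and Snhg1 between BURP-24BaSq and BURP-16SR passed in every alternative run. BURP-19NE and BURP-16SR have 3 tumors of 1 donor each, which limits every comparison with them. At these depths Meg3 and Pvt1, the least abundant members, stayed above the floor of 3 counts in each tumor.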

Other observations

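Of 19 other long noncoding RNAs tested, 3 were higher and 1, Miat, lower in BURP-19NE than in the Ba/Sq tumors. Of all genes, 15.5% were higher and 17.9% lower. Sox2ot, which overlaps the gene of the stem cell factor Sox2, was at 9.43, 8.80 and 10.5 CPM in BURP-19NE against a Ba/Sq mean of 2.33 CPM (log2 2.08, SE 0.41, edgeR adjusted p = 0.000486), and all 3 tumors exceeded the highest Ba/Sq tumor at 5.42 CPM. Airn, the imprinted antisense RNA of Igf2r, was at 29.8, 24.2 and 10.8 CPM against a mean of 6.44 CPM (log2 1.77, SE 0.42, edgeR adjusted p = 0.00291), with overlap. Miat had 0 counts in the 3 BURP-19NE tumors and a Ba/Sq mean of 0.795 CPM. It could enter the test only through the Ba/Sq tumors and could only come out lower. In BURP-16SR, 1 of 19 was higher and 1, Sox2ot, lower, at 0.254, 0.0774 and 0.909 CPM (log2 -2.38, SE 0.69, edgeR adjusted p = 0.0145), levels near the floor of 3 counts. Between BURP-16SR and BURP-19NE, Jpx, a noncoding activator of Xist, was higher (log2 1.07) and Sox2ot lower (log2 -4.40), 2 of 18. Against BURP-16SR, BURP-24BaSq had 2 of 19 higher, Dleu2 (log2 1.17) and Sox2ot (log2 2.45), and 7 lower, among them Lncpint (log2 -1.36) and Miat (log2 -3.24). In each test that involved BURP-16SR, Sox2ot could enter only through the other group and could only come out lower in BURP-16SR.

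Between the sexes, 2 of 18 were higher in females and 1 lower, with tumors of a line taken as independent. All 3 calls were lost with counts summed per line (edgeR adjusted p from 0.74 to 0.776) and in limma-voom with line as a random effect (adjusted p from 0.509 to 0.711). Sox2ot was at 3.23 CPM in female and 1.43 CPM in male Ba/Sq tumors (log2 1.13, SE 0.29, edgeR adjusted p = 0.0315), and Ftx, an RNA of the X-inactivation region, at 9.81 and 17.7 CPM (log2 -0.86, SE 0.24, edgeR adjusted p = 0.0443), where BURP-12BaSq alone had 24.6 to 29.5 CPM. H19 passed as higher in females (log2 4.43, SE 1.196, edgeR adjusted p = 0.0359), but its high values were those of BURP-21BaSq, at 1151, 253 and 961 CPM, and of C102-M1, labelled BURP-25BaSq, at 696 CPM, while BURP-24BaSq was at 17.1, 16.2 and 5.58 CPM. Without C102-M1 its log2 difference was 4.24 and no longer passed (edgeR adjusted p = 0.0595), nor did that of Ftx (edgeR adjusted p = 0.054), while that of Sox2ot did (log2 1.23, edgeR adjusted p = 0.0282). The male tumors ran up to 49.8 CPM of H19. None of the paraspeckle, nuclear speckle, snoRNA host, nonsense-mediated decay, Dlk1-Dio3, Kcnq1 domain, Pvt1 neighbour or short structured RNA lists had a gene past the threshold between the sexes.

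Between BURP-16SR and BURP-19NE, 3 of 15 snoRNA hosts were higher in BURP-16SR, among them Snhg20 (log2 0.90, edgeR adjusted p = 0.00957) and Snhg14 (log2 0.84, edgeR adjusted p = 0.0349), while Gas5 was lower there. In the same comparison 4 of 13 short structured RNAs were higher, among them Vaultrc5 (log2 5.13) and Rn7s1 (log2 2.37), and Scarna10 was lower (log2 -0.50). In the Dlk1-Dio3 domain Dlk1 (log2 6.30), Rtl1 (log2 3.94) and Mirg (log2 3.55) were higher in BURP-16SR, 3 of 5, where 34.3% of all genes passed. In BURP-24BaSq 2 of 4, Dlk1 (log2 -7.78) and Rtl1 (log2 -3.27), were lower than in BURP-16SR, where 38% of all genes passed. Dlk1 averaged 22.2 CPM in BURP-16SR and 0.286 CPM in BURP-19NE. It could enter both tests only through BURP-16SR and could only come out higher there. The size of its folds rests on few counts in the other line. Skeletal muscle markers summed to 605 CPM in C80-M1 of BURP-19NE, against 3.22 and 6.63 CPM in C80-M3 and C80-M30, while Pvt1 and Rmrp in that tumor, at 29.1 and 1152 CPM, lay with the other 2.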
